A study of Mus musculus with 12 samples.

Results

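Fatty acid desaturases and elongases set the length of fatty acid chains and the number of their double bonds, and 10 of their genes were examined here in the livers of mice with and without Pctp. The genes are the desaturases Scd1, Scd2, Fads1, Fads2 and Fads3 and the elongases Elovl1, Elovl2, Elovl3, Elovl5 and Elovl6. They were chosen by gene symbol, as every Affymetrix probe set whose only symbol is 1 of these names, which gave 19 probe sets of 10 genes out of 12384 genes measured. All 12 animals were male mice on the FVB/NJ background, aged 9 weeks, that had eaten a diet holding 0.2% fenofibrate by weight for 7 days from the age of 8 weeks. The knockout group was 6 Pctp-/- mice, which lack phosphatidylcholine transfer protein (PC-TP), and the wild-type group was 6 littermates with the gene intact. Both groups received the drug and no group without it was analysed here, so each difference is between genotypes under fenofibrate. RNA of 1 liver was hybridised to each array, so each array is a separate animal.

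Fatty acid synthase releases mainly palmitate, a saturated chain, and the enzymes examined here modify it and the fatty acids of the diet. Stearoyl-CoA desaturases place the first double bond into saturated chains and so make oleate and palmitoleate. The enzymes of Fads1 and Fads2 and the elongases Elovl2 and Elovl5 act in alternation to turn the essential fatty acids linoleate and alpha-linolenate into arachidonate and docosahexaenoate. Elongases catalyse the first, rate-setting step of a cycle that lengthens the chain in the endoplasmic reticulum. In mouse liver several of these genes are known targets of SREBP-1c and of PPARα, the nuclear receptor that fenofibrate activates, and the phosphatidylcholine that PC-TP binds carries many of their products.

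Pctp itself checked the labels. Its brighter probe set averaged 82.5 ± 12.3 in knockout and 2855 ± 77.2 in wild-type livers (intensity in the authors' units, with SD over 6 arrays each), and no knockout array came near a wild-type one. None of the 10 genes lies on chromosome 11, where Pctp is. Array medians ran from 84.0 to 91.1, and 9 lists of liver and other cell types were read beside the results. Of 9 hepatocyte markers, 1 (Hnf4a) was higher and 1 (Cps1) lower in knockout, and their summed intensity was 62603 to 65580.2 in knockout and 62084 to 65951 in wild-type arrays. The control probe sets for RNA integrity differed between the groups. On the log2 scale, the 5′ beta-actin probe set minus the 3′ one was -1.18 ± 0.0839 in knockout and -1.57 ± 0.132 in wild-type arrays (SD over 6 arrays each), without overlap (two-sided exact permutation p = 0.00216, the smallest that 6 against 6 can give). The Gapdh ratio was higher in knockout by 0.11, also without overlap and with the same exact permutation p.

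By the brightest probe set of each gene, 0 of the 10 desaturases and elongases passed the test between genotypes, where 11.7% of all genes did (6.44% higher and 5.24% lower in knockout), and with 10 genes the 2 shares are close. The test is limma on log2(intensity + 16), knockout minus wild type, with p-values adjusted over all 22626 probe sets and a threshold of 0.05. At an unadjusted p under 0.05, 1 member (Elovl2) would count, against 26.2% of all genes. The members' log2 differences ran from -0.23 for Elovl2 to 0.40 for Scd2, with a median of 0.016 beside 0.015 over all genes. Their median absolute difference was 0.066, and that of all genes 0.10. For 5 members (Scd1, Fads1, Fads2, Elovl1 and Elovl5) the 95% interval of the brightest probe set lay within 1.25-fold in either direction, a width chosen after the values were seen. For Scd1 this holds for that probe set only. The interval of the dimmer Scd1 probe set, 1415965_at, was 1.11 to 1.35-fold, so a larger change of Scd1 is not excluded.

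**Figure D1:**
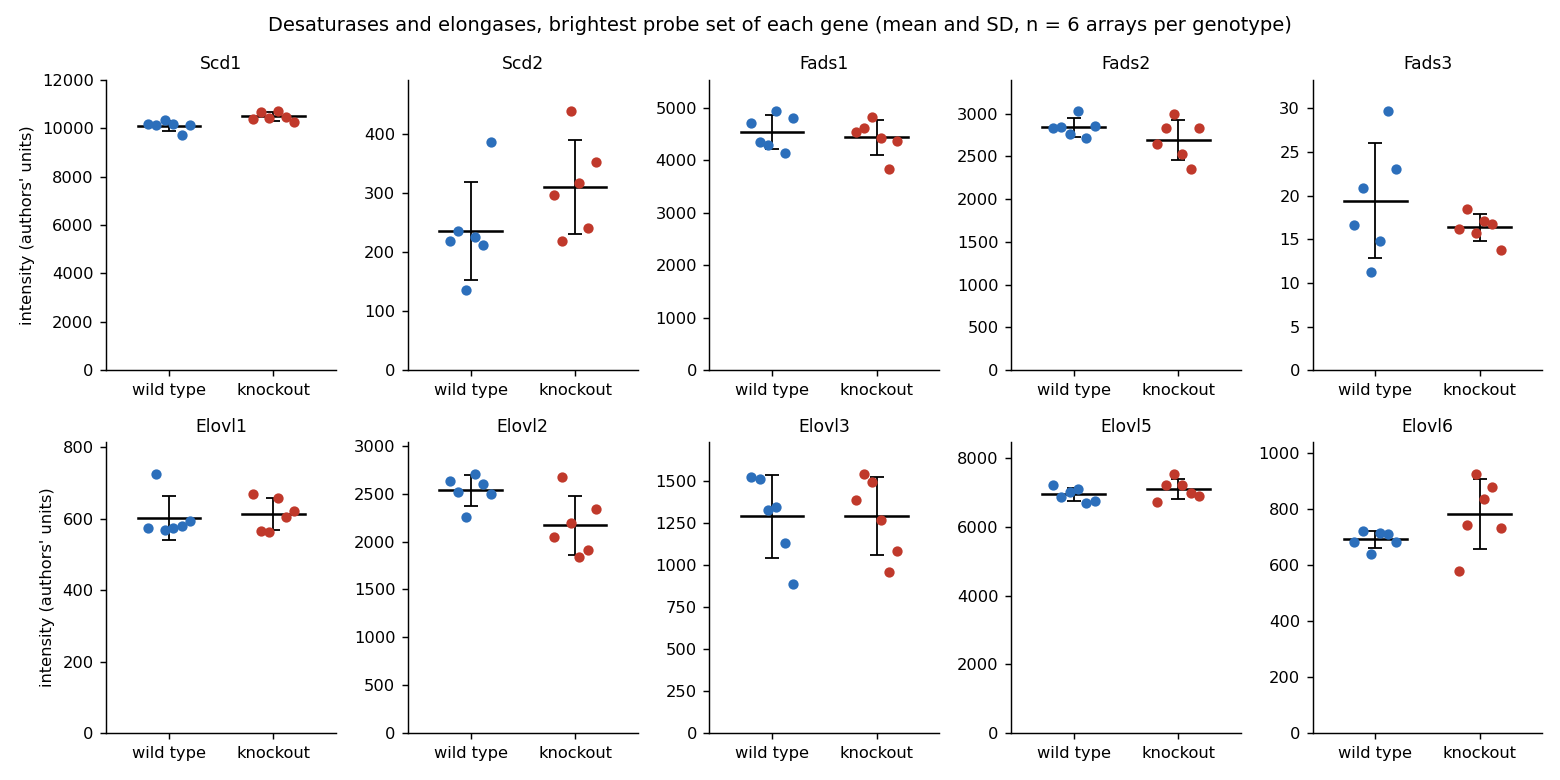
Intensity of the brightest probe set of each of the 10 genes in every animal, in the authors' units from 0 upward, with wild type in blue and knockout in red. Each point is 1 array, lines are means and bars SD (n = 6 per genotype). The groups overlap in all 10 panels, and Scd1 and Elovl5 vary least between animals.

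When the other probe sets were read as well, 2 of the 19 passed, 1 of Scd1 and 1 of Scd2, both higher in knockout. Over the whole array, 12% of probe sets passed, 6.82% in the higher direction. Counting a gene where any of its probe sets passed gave 2 of 10 members and 16.6% of all genes. Both shares are near those of the whole array and are not read as a result about these genes. The 2 genotypes did not overlap for 1 of the 19 probe sets, that of Scd2, against 6.75% of all probe sets.

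**Figure D2:**
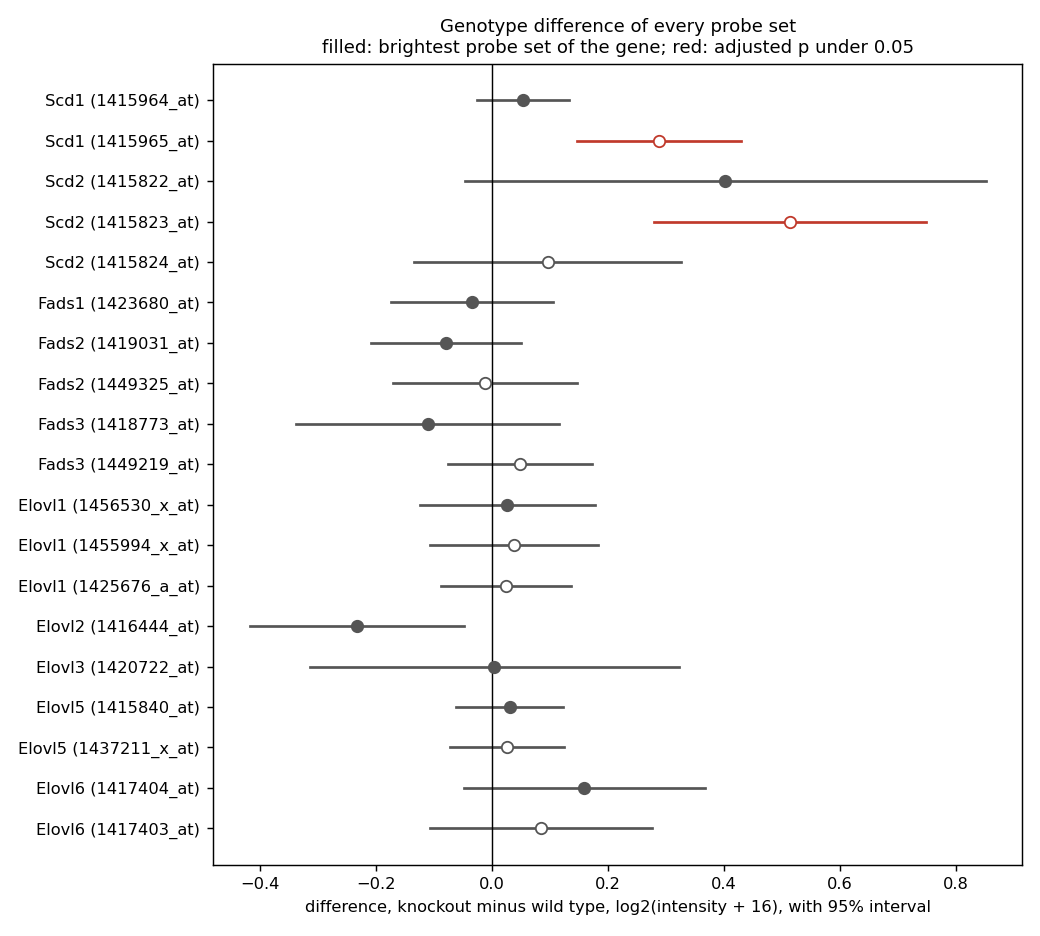
Difference between genotypes for all 19 probe sets, knockout minus wild type on the log2(intensity + 16) scale, with 95% intervals. Filled points are the brightest probe set of each gene and red marks an adjusted p under 0.05, reached by 1415965_at of Scd1 and 1415823_at of Scd2.

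Scd1 encodes the main stearoyl-CoA desaturase of mouse liver, the enzyme that makes oleate from stearate. Its brightest probe set, 1415964_at, was in the 99.97th percentile of all probe sets by mean intensity. The highest value on an array was between 12115 and 18279. Wild-type values of 1415964_at ran from 9708 to 10341 with a median of 10154, and knockout values from 10272 to 10725 with a median of 10454. The knockout animals sat above the wild-type median in 6 of 6 cases and above every wild-type animal in 5 of 6, but the step was small. The difference was 0.054 (SE 0.0364, adjusted p = 0.386), or 1.04-fold with a 95% interval of 0.983 to 1.10.

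The dimmer Scd1 probe set, 1415965_at, gave a larger difference that passed the test. It ran from 3109 to 3994 with a median of 3299 in wild type and from 3879 to 4427 with a median of 4231 in knockout. The groups touched only through 1 wild-type animal, which reached into the knockout range. The difference was 0.29 (SE 0.0653, adjusted p = 0.0134), 1.22-fold with a 95% interval of 1.11 to 1.35. Within each array, the log2 difference between these probe sets was itself greater in knockout, by 0.23 (two-sided exact permutation p = 0.00866, 0.0130 adjusted over 3 such comparisons chosen after the values were seen). After each genotype's mean was removed, the 2 probe sets correlated with r = 0.27 over the 12 arrays, so they did not follow the same animals closely. When all probe sets of each gene were averaged instead, Scd1 passed, at 0.17 (adjusted p = 0.0244).

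Scd2, a further stearoyl-CoA desaturase gene that lies beside Scd4 and near Scd1 on chromosome 19, is known as the form of brain and of newborn tissues. Its brightest probe set, 1415822_at, ran from 135 to 387 with a median of 222 in wild type and from 219 to 439 with a median of 306 in knockout. These wide ranges overlapped, and the difference of 0.40 (SE 0.208, adjusted p = 0.245) did not pass, although it was the largest among the members' brightest probe sets. The probe set 1415823_at separated the genotypes. Its wild-type values ran from 49.0 to 75.8 with a median of 63.9 and its knockout values from 85.5 to 128 with a median of 90.7. Each knockout animal was above each wild-type animal, and the difference was 0.51 (SE 0.108, adjusted p = 0.00941), 1.43-fold with a 95% interval of 1.21 to 1.68. The remaining probe set, 1415824_at, overlapped throughout and differed by 0.10 (SE 0.106, adjusted p = 0.622).

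Of the probe sets of the 10 genes, 1415823_at is the only 1 among the 727 in the authors' deposited table of selected changes. That authors' deposited table gives it a fold of 1.55 (bounds 1.29 to 1.86), a p-value of 0.004607 and a present call on 100% of the arrays of both groups. The within-array difference between 1415823_at and 1415824_at was greater in knockout by 0.42 (two-sided exact permutation p = 0.00649, 0.0130 adjusted), whereas that between 1415823_at and 1415822_at differed by 0.11 (exact permutation p = 0.504). The sources used here do not give which parts of the transcripts these probe sets read.

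**Figure D3:**
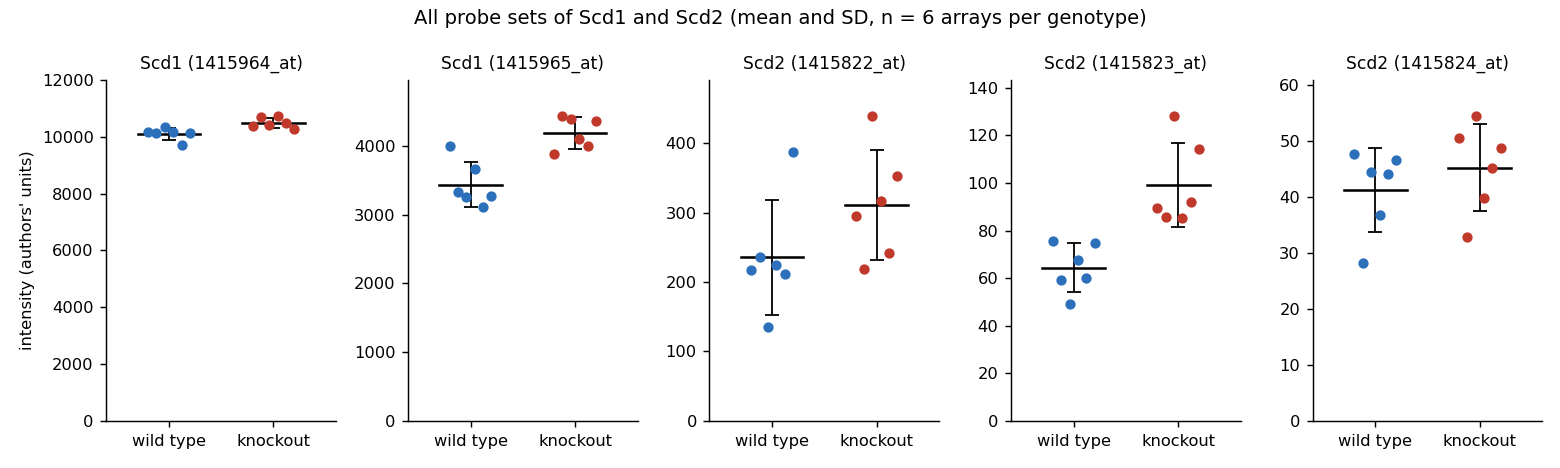
Intensity of the 2 probe sets of Scd1 and the 3 of Scd2 in every animal, in the authors' units from 0 upward, with means and SD (n = 6 per genotype). Only 1415823_at of Scd2 separates the genotypes completely, and 1415965_at of Scd1 overlaps through 1 wild-type animal.

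Markers of other cell types are given beside the Scd calls because whole liver was measured, where more cells of a type and more RNA per cell cannot be told apart. Over all genes, 6.44% were higher and 5.24% lower in knockout. Of 12 stellate cell and fibroblast markers, 4 were higher in knockout (Dcn, Reln, Rgs5 and Ecm1) and 0 lower. Their summed intensity was 3651 to 4351 in knockout and 3105 to 3766 in wild-type arrays, and the defining marker Hand2 was below the lower quartile on every array. Of 7 adipocyte markers 0 passed, their sum was 5405 to 6593 in knockout and 5947 to 7208 in wild-type arrays, and Lep, Retn and Ucp1 were below the lower quartile on every array. The beta-actin ratio correlated with 1415965_at of Scd1 at r = 0.36 over 12 arrays after removal of genotype means (Spearman rho = 0.25, permutation p = 0.340 and 0.483), and with 1415823_at of Scd2 at r = 0.10 (rho = 0.077, permutation p = 0.762 and 0.828). Adjusted over these relations, the p of r was 0.680 and 0.762. Without the 2 arrays farthest from the median deviation of the Scd probe set, r was -0.57 for Scd1 and 0.10 for Scd2. No arrays were left out by their ratio. The relation ran in opposite directions within the genotypes, at -0.78 in knockout and 0.79 in wild type for Scd1 (exact permutation p = 0.0736 and 0.0583, n = 6 each) and -0.60 and 0.61 for Scd2 (exact permutation p = 0.206 and 0.188). The part of these cells and of RNA integrity in the genotype difference was not tested.

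Fads1 and Fads2 encode the desaturases that add double bonds between an existing one and the carboxyl end, the Fads2 enzyme acting first and the Fads1 enzyme after elongation. They lie side by side on chromosome 19, with Fads3 on the other side of Fads2. Fads1 ran from 4141 to 4939 with a median of 4525 in wild type and from 3834 to 4829 with a median of 4475 in knockout. The groups overlapped almost fully, with a difference of -0.034 (SE 0.0642, adjusted p = 0.795) and a 95% interval of 0.887 to 1.08-fold.

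Fads2 was measured by 2 probe sets of nearly equal intensity. The brighter in its mean, 1419031_at, ran from 2712 to 3032 with a median of 2837 in wild type and from 2351 to 2991 with a median of 2736 in knockout. Although 3 knockout animals fell below the lowest wild-type animal, the difference of -0.078 (SE 0.0598, adjusted p = 0.452) did not pass. The second, 1449325_at, differed by -0.011 (SE 0.0735, adjusted p = 0.948). The probe sets agreed on which animals were high, with r = 0.87 and rho = 0.76 over the 12 arrays after removal of genotype means.

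Fads3, whose enzyme is reported to act on sphingoid bases, was close to the dark end of the arrays. The mean of 1418773_at was 16.4 ± 1.56 among knockout and 19.4 ± 6.58 among wild-type animals (SD, n = 6 each), where the lower quartile of an array lay between 22.05 and 23.6. The other probe set, 1449219_at, stayed between 1 and 5.16 on all 12 arrays. No fold is given for either, and neither passed (adjusted p = 0.559 and 0.642).

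Elovl5 and Elovl2 are the elongases of the polyunsaturated route, Elovl5 lengthening the products of Fads2 and Elovl2 the longer chains that lead to docosahexaenoate. Elovl5 was bright and even between animals. Its probe set 1415840_at ran from 6687 to 7203 with a median of 6942 in wild type and from 6725 to 7549.9 with a median of 7101 in knockout. The groups overlapped, and the difference of 0.031 (SE 0.0426, adjusted p = 0.698) had a 95% interval of 0.959 to 1.09-fold. The second probe set, 1437211_x_at, whose suffix marks probes that can match other transcripts too, differed by 0.026 (SE 0.0454, adjusted p = 0.770).

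Elovl2 had the largest difference toward lower values in knockout among the members, without passing the test. Wild-type animals ran from 2253 to 2712 with a median of 2562, and knockout animals from 1845 to 2677 with a median of 2122. Of the 6 knockout animals, 4 were below the lowest wild-type animal and 1 was above the wild-type median. The means were 2170.2 ± 306 and 2537 ± 159 (SD, n = 6 each), and the difference was -0.23 (SE 0.0853, adjusted p = 0.0986), 0.851-fold with a 95% interval of 0.749 to 0.967. Elovl2 is the member nearest the threshold by its brightest probe set, and 1 animal moved it across. Without knockout replicate 2 the difference was -0.29 (adjusted p = 0.0253), and with the test limited to probe sets of mean intensity of at least 100 the adjusted p was 0.0497.

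Start regions of the polyunsaturated route are shown for the 3 of its genes with an entry in the RefSeq table of mouse promoters (build GRCm38.p6), because Fads2, Elovl5 and Elovl2 act in turn on the same chains and Elovl2 was the member nearest the threshold. Each window holds 250 bases before and 50 after the start of transcription, written 5′ to 3′ on the gene's own strand, with searched motifs in capitals. The windows are Fads2 at chr19:10101454-10101753 on the minus strand, Elovl5 at chr9:77917115-77917414 on the plus strand and Elovl2 at chr13:41220354-41220653 on the minus strand.
Fads2: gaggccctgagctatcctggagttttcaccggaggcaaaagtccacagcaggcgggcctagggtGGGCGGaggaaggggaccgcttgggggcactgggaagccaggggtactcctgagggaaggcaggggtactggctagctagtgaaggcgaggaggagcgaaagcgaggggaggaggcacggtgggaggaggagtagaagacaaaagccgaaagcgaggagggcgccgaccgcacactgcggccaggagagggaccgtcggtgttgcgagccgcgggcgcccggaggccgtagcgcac
Elovl5: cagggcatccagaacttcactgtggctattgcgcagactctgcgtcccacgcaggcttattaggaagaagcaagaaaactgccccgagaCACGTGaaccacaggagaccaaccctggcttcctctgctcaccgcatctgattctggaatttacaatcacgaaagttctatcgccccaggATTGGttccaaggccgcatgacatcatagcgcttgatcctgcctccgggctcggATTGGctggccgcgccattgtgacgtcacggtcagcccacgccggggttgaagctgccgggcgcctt
Elovl2: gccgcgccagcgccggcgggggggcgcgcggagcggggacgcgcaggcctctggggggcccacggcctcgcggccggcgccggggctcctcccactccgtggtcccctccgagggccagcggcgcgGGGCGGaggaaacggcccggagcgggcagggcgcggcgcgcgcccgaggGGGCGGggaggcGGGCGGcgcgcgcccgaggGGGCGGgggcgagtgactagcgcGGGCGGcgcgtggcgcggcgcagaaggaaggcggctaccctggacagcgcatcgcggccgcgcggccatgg
The capitals mark the E-box CACGTG, the CCAAT box CCAAT, the GC box GGGCGG and the sterol regulatory element TCACNCCAC, each searched on both strands, and no marked motif overlaps another. A box on the opposite strand appears as its reverse complement, as both CCAAT boxes of Elovl5 do. The Elovl5 window holds 1 E-box, found in 7.15% of 32851 windows of this length, and 2 CCAAT boxes (37.4% of windows hold any). A second Elovl2 window in the table, chr13:41220113-41220412, overlaps the printed one and holds 0 of the searched motifs. The printed Elovl2 window holds 5 GC boxes and that of Fads2 holds 1 (35.7% of windows hold any). The sterol regulatory element letters occur in 1.24% of windows and in 0 of the 8 windows of the 6 members with an entry, Fads2, Fads3, Elovl1, Elovl2, Elovl5 and Elovl6. Scd1, Scd2, Fads1 and Elovl3 were the other members. These are matches of letters only and were not set against binding data.

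Elovl6 lengthens palmitate to stearate, the step before Scd1. Its brighter probe set, 1417404_at, ran from 638 to 722 with a median of 698 in wild type and from 579 to 927 with a median of 789 in knockout. The knockout animals were more scattered, 5 of them above every wild-type animal and 1 below every wild-type animal. The difference of 0.16 (SE 0.0957, adjusted p = 0.322) did not pass, and without that low animal, knockout replicate 1, it was 0.24 (adjusted p = 0.0470). The dimmer probe set, 1417403_at, differed by 0.085 (SE 0.0885, adjusted p = 0.601) and did not pass when that animal was left out.

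Elovl1, which makes saturated and monounsaturated very long chains for sphingolipids, was nearly equal in both genotypes. Its 3 probe sets, 2 of them with the suffix _x_at, differed by 0.027, 0.038 and 0.025 on the log2 scale, with adjusted p of 0.855, 0.774 and 0.811. The brightest, 1456530_x_at, averaged 614 ± 44.9 in the knockout group and 603 ± 61.4 in the wild-type group (SD, n = 6 each), with 1 wild-type animal at 727 above all others.

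Elovl3, an elongase of saturated and monounsaturated chains known for a daily rhythm and for higher levels in males in mouse liver, had equal means and a wide spread. It ran from 886 to 1526 with a median of 1339 in wild type and from 959.6 to 1544 with a median of 1328 in knockout. Animals of either genotype covered almost the same range, and the difference was 0.0048 (SE 0.147, adjusted p = 0.990). Its 95% interval of 0.804 to 1.25-fold leaves room for a change of that size in either direction. Of 17 clock genes read beside it, 0 were higher and 5 lower in knockout, where 6.44% and 5.24% of all genes were. Clock genes that did not pass went in both directions, and the list median was -0.21. The lower ones include the repressors Cry2 (-0.51, SE 0.0770, adjusted p = 0.00201) and Per1 (-0.75, SE 0.122, adjusted p = 0.00289). The transcription factor gene Tef (-0.49, SE 0.117, adjusted p = 0.0165) is also among them. The dimmer Tef probe sets did not pass, 1438033_at at -0.21 (SE 0.150, adjusted p = 0.406) and 1450184_s_at at -0.024 (SE 0.0809, adjusted p = 0.891). The sources used here do not give the hour at which livers were collected.

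The balance between successive enzymes was compared within each array for 6 pairs of brightest probe sets, as the difference of log2 values, which is no ratio of transcript levels. Elovl2 relative to Elovl5 was lower in knockout by the largest margin with a small p, -0.26 (two-sided exact permutation p = 0.0238, 0.143 adjusted), and did not pass after adjustment over the 6 pairs. Elovl6 relative to Scd1 differed by 0.11 (two-sided exact permutation p = 0.327, 0.392 adjusted), and Fads1 relative to Fads2 by 0.045 (two-sided exact permutation p = 0.232, 0.347 adjusted). Scd2 relative to Scd1 differed by 0.35, Elovl5 relative to Elovl6 by -0.13 and Elovl3 relative to Elovl6 by -0.16, with adjusted exact permutation p from 0.342 to 0.444. No pair passed, so no shift in these balances was detected with 6 animals a group.

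Between animals of the same genotype, Fads1 and Fads2 were high or low together, and theirs was the 1 correlation of 45 that passed. After each genotype's mean was removed, their Pearson r over 12 arrays was 0.82 (permutation p = 0.000620, 0.0279 adjusted over the 45 pairs) and their Spearman rho 0.78 (permutation p = 0.00402, 0.181 adjusted). The call thus held for r and not for rho. The relation was seen in knockout (r = 0.87, exact permutation p = 0.0194) and in wild-type animals (r = 0.86, exact permutation p = 0.00972) separately, with n = 6 each. Without the 2 arrays farthest from the median it was 0.62. The other 44 pairs did not pass, the nearest being Fads2 with Elovl2 at r = 0.67 (permutation p = 0.0585, 0.613 adjusted; rho = 0.69, permutation p = 0.0382), and the median r of the 45 was 0.055.

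**Figure D4:**
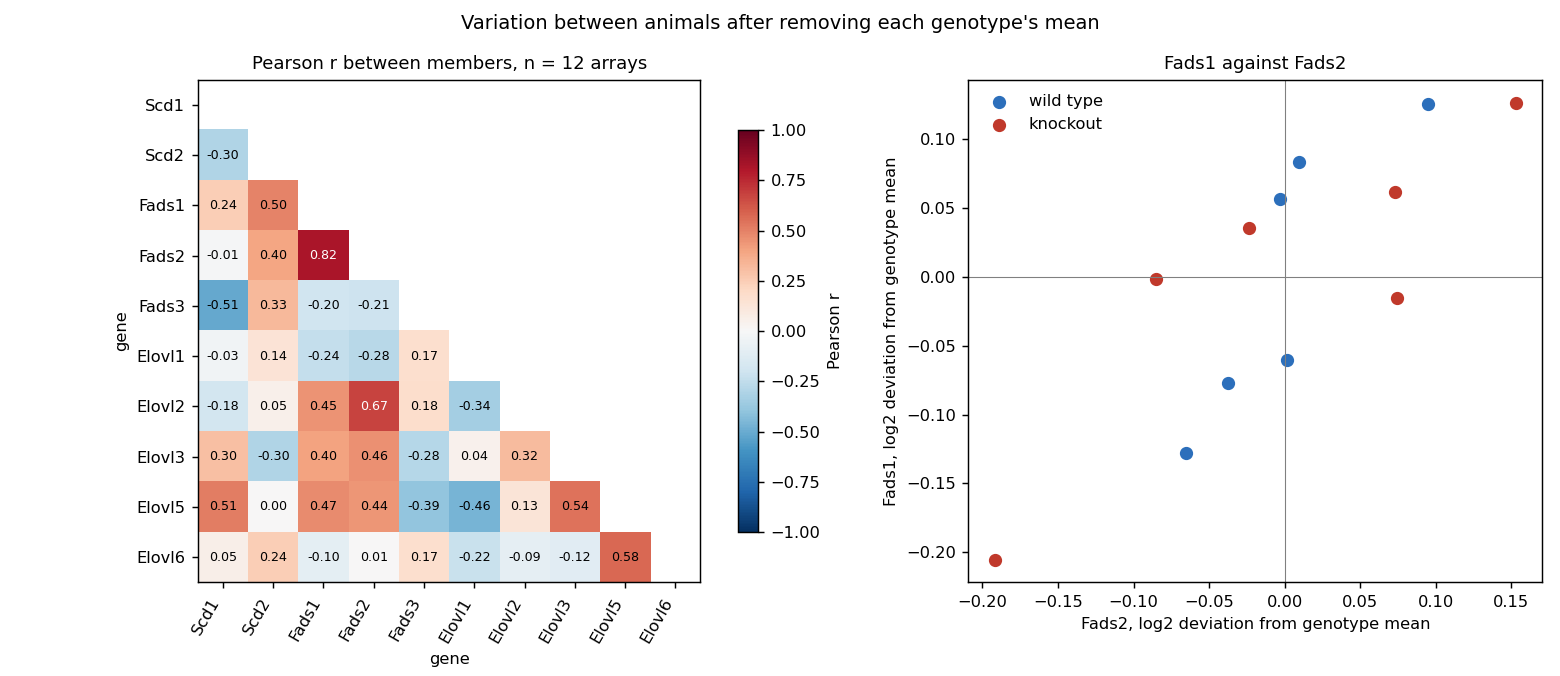
Left, Pearson r between the brightest probe sets of each pair of the 10 genes over 12 arrays, after the mean of each genotype was removed, on a scale from -1 to 1. Right, the pair with the highest r, Fads1 against Fads2 (r = 0.82), as log2 deviations from the genotype mean, 1 point per animal.

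The genes most like the Scd probe sets that passed were sought among 6686 genes of mean intensity of at least 100, by Pearson r of deviations from genotype means over the 12 arrays. For 1415965_at of Scd1 they were Mpp7 (r = 0.96, rho = 0.96), Lactb2 (r = 0.91, rho = 0.92) and Eps8l2 (r = 0.88, rho = 0.89). For 1415823_at of Scd2 they were Ggcx (r = 0.89, rho = 0.89), Ropn1l (r = 0.84, rho = 0.72) and Hr (r = 0.83, rho = 0.82). These are the highest of many correlations over few animals and are a description only. Of the 6 genes, Eps8l2 alone passed the test between genotypes (0.19, adjusted p = 0.0391).

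Of 10 measured partners of the elongation cycle and electron supply, 0 passed by the brightest probe set and 3 (Hacd3, Cyb5b and Cyb5r3) by another. Those that did not pass by the brightest include Hsd17b12, the ketoacyl reductase of the cycle (-0.11, SE 0.0449, adjusted p = 0.140), Tecr, its last reductase (0.028, SE 0.0481, adjusted p = 0.769), and Cyb5a, the electron donor of the desaturases (0.062, SE 0.0369, adjusted p = 0.319). The dimmer Hsd17b12 probe set, 1450010_at, went the other way without passing (0.14, SE 0.0687, adjusted p = 0.225). Of 5 further desaturases and elongases, 1 was lower in knockout, Elovl7 (-0.33, SE 0.0781, adjusted p = 0.0162), at 85.6 ± 9.24 against 112 ± 12.2 (SD, n = 6 each). Scd3, the neighbour of Scd2, read 37.5 and 33.7 and did not pass (adjusted p = 0.534).

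Of 9 measured genes known to regulate the members, 2 were higher and 2 lower in knockout, with a list median of 0.0026. The shares over all genes were 6.44% higher and 5.24% lower. Srebf1, which encodes the SREBP-1 factors that activate lipid synthesis, ran from 759 to 1055 with a median of 888 in wild type and from 1234 to 1721 with a median of 1430.1 in knockout. The groups did not overlap, and it rose by 0.68 (SE 0.0989, adjusted p = 0.00159). Srebf2, its relative for sterol synthesis, rose by 0.26 (SE 0.0573, adjusted p = 0.0113). Ppara, the receptor for fenofibrate, changed by -0.44 (SE 0.0786, adjusted p = 0.00449) and its partner Rxra by -0.27 (SE 0.0494, adjusted p = 0.00517). By these brightest probe sets, both were lower in every knockout animal than in any wild-type animal. The dimmer Rxra probe set, 1425762_a_at, was at -0.15 (SE 0.0700, adjusted p = 0.189), with overlapping groups.

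Of 10 measured genes of carbon supply for synthesis, 1 was higher and 2 were lower in knockout, and 7 did not pass. Here too the shares over all genes were 6.44% higher and 5.24% lower. Mid1ip1, whose product promotes the polymerisation of acetyl-CoA carboxylase, ran from 414 to 702 with a median of 641 in wild type and from 1050.3 to 1206 with a median of 1124 in knockout, without overlap (0.93, SE 0.113, adjusted p = 0.000616). The carboxylase genes themselves were lower, Acacb at -0.32 (SE 0.0710, adjusted p = 0.0123) and Acaca at -0.61 (SE 0.110, adjusted p = 0.00451), the latter on a dim probe set that read 26.6 ± 7.43 against 48.8 ± 7.41 (SD, n = 6 each). Fasn, the fatty acid synthase, differed by 0.10 (SE 0.0544, adjusted p = 0.289). Acaca, Srebf1 and Per1 lie on chromosome 11, as Pctp does.

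Genes that use the products were counted next. Among 6 measured long-chain acyl-CoA synthetases and transporters 0 passed, the nearest being Acsl4 (-0.16, SE 0.0560, adjusted p = 0.0842), which prefers arachidonate. Its dimmer probe sets did not show that difference. They were at -0.0062 for 1418911_s_at (SE 0.0896, adjusted p = 0.979) and at 0.22 for 1451828_a_at (SE 0.101, adjusted p = 0.190). Among 13 acyltransferases 1 was lower, Dgat1 of triglyceride synthesis (-0.16, SE 0.0476, adjusted p = 0.0468). That call was lost with a trended variance (adjusted p = 0.0505) and without any of 9 of the 12 arrays (adjusted p from 0.0588 to 0.0951). Lpcat3, which places polyunsaturated chains into phosphatidylcholine, differed by 0.13 (SE 0.0442, adjusted p = 0.0803) and did not pass. Of 7 genes of peroxisomal beta-oxidation, which completes docosahexaenoate, 1 was higher, the very long chain acyl-CoA transporter Abcd2 (0.50, SE 0.0903, adjusted p = 0.00465), without overlap between the groups.

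**Figure D5:**
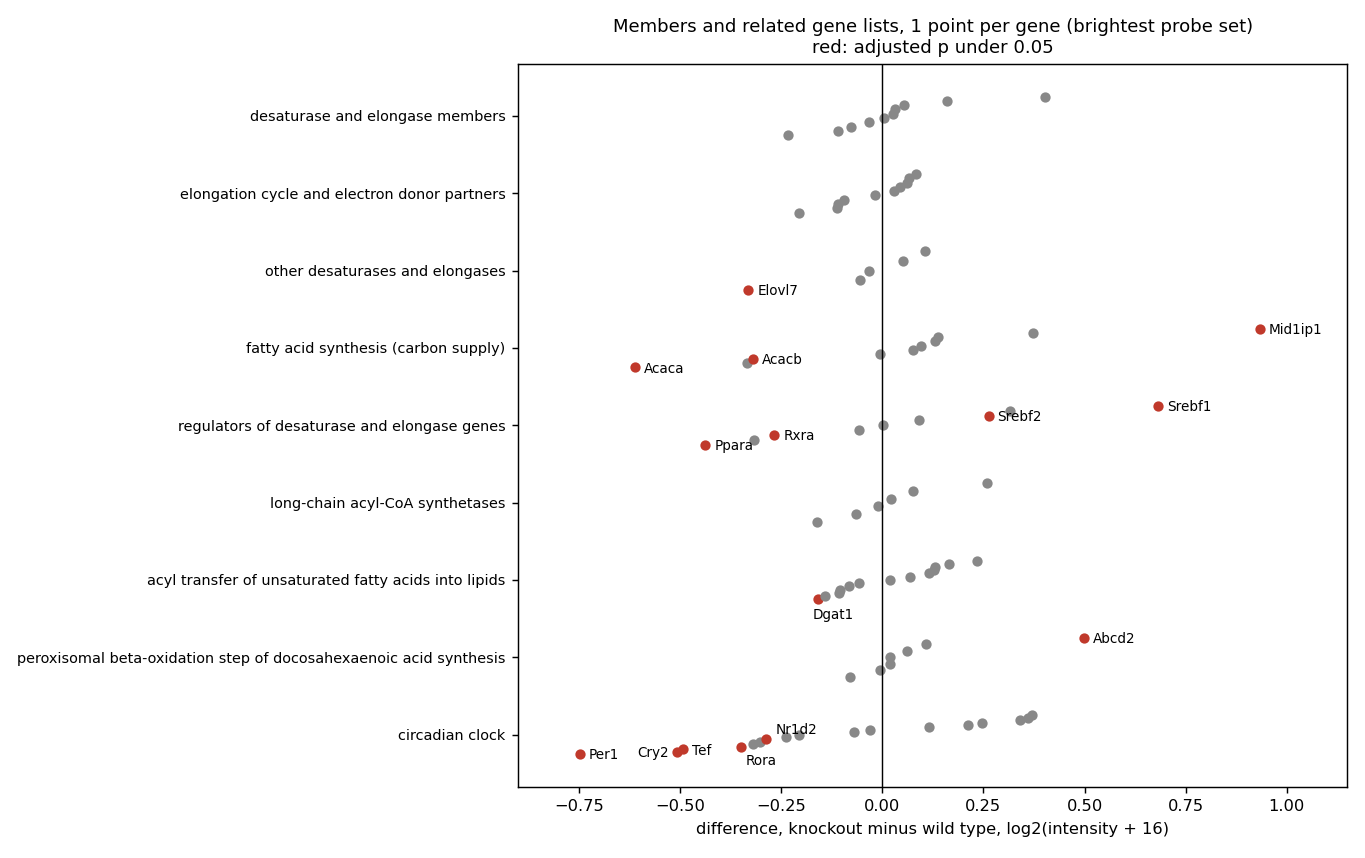
Difference between genotypes, knockout minus wild type on the log2(intensity + 16) scale, for the 10 members and the genes of 8 related lists, 1 point per gene by its brightest probe set. Red points have an adjusted p under 0.05 and are named. Among the members 0 of 10 are red, where 11.7% of all genes are.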

How the data were processed

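Liver RNA of 12 mice (6 knockout, 6 wild type) was measured on Affymetrix mouse arrays, 1 animal per array. The values are probe-set intensities on a linear scale as deposited by the authors. Which program summarised and scaled them is unknown from the sources used here. A second table deposited by the authors lists 727 selected probe sets with, per the file headers, a signed fold and its bounds, a t statistic (a score), a p-value and each group's percent of present calls. Only its Scd2 entry was printed, and its 24 per-sample columns were not used.

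After removal of 64 control probe sets, 22626 were tested, of which 20380 had 1 symbol, 691 several and 1555 none. Platform symbols were updated through gene identifiers to RefSeq names (assembly GRCm38.p6). Each gene was read by its brightest probe set (highest mean over 12 arrays), giving 12384 genes. Array medians lay between 84.0 and 91.1, array correlations between 0.985 and 0.994, and 0 pairs of arrays were identical. The number of arrays limits the precision.

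Tests used limma 3.58.1 (lmFit, eBayes) in R 4.3.3 on log2(intensity + 16), two-sided, with p-values adjusted by Benjamini-Hochberg over the 22626 probe sets and called under 0.05. The procedure was tested on simulated data with noise drawn independently for each probe set. That simulation cannot cover differences shared by many probe sets, such as that in RNA integrity. Folds include the added 16, and means and SD are on the linear scale. Single measures per array were set between genotypes with exact two-sided permutation tests, and correlations of deviations from group means by 100000 permutations within genotype (all permutations within 1 genotype). Python 3.11.15 with scipy 1.17.1, numpy 2.4.6, pandas 2.3.3 and matplotlib 3.10.9 was used for these and for the figures. The members and all gene lists were chosen with earlier results of these data known. The rule for naming genes took all members, Pctp, up to 3 genes per list with the smallest p past the threshold and the 3 genes most like each member probe set that passed. Other list genes (Srebf2, Hsd17b12, Tecr, Cyb5a, Scd3, Fasn, Acsl4 and Lpcat3) were named after their values were seen. A cell type marker was called below the lower quartile when it was so on all 12 arrays. Of the cell type lists not described with the results, those of Kupffer cells (10 genes), bile duct cells (5), lymphocytes (9) and neutrophils (4) had 0 calls, that of endothelial cells (10) had 1 lower (Ptprb) and that of erythroid cells (5) had 1 lower (Alas2). Alternatives changed the added constant (1 or 64), the minimum intensity (100), the scaling (quantile or median), the variance model (trended and robust), the array weights, the replicate block, the threshold, the arrays (each left out in turn) or the gene summary (average of its probe sets).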

Additional observations from a re-analysis of the deposited data

Results flagged for a closer look

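In 38 groups of 6 arrays (19 probe sets in 2 genotypes), the highest or lowest array was compared with its group by Dixon's gap criterion, and 6 groups held an array that stood apart, where chance marks about 1 group in 20. Wild-type replicate 5 was low for Scd1 (1415964_at), at 9708 beside 10138 to 10341 in the other wild-type arrays. The same array was low for 1437211_x_at of Elovl5, at 6235 beside 6749 to 7045. Wild-type replicate 2 was high for Elovl1 on 2 probe sets, at 727 on 1456530_x_at (others 567 to 595) and 698 on 1455994_x_at (others 541 to 596). These 2 probe sets vary together (r = 0.96, rho = 0.94 over 12 arrays), so they are not separate observations. The dim probe set 1449219_at of Fads3 had knockout replicate 2 at 5.16 with the others at 1, and wild-type replicate 6 at 1.16 with the others from 1 to 1.06, values at the floor of the scale.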

How the results depend on the processing

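No member passed by its brightest probe set under added constants of 1 and 64, quantile normalization, median centring, the trended and robust variance, array weights or an adjusted p under 0.01. Exactly 1 member passed with the test limited to mean intensities of at least 100 (Elovl2; 9 members tested, and 1415823_at of Scd2 left out), with a threshold of 0.1 (Elovl2) and with probe sets averaged per gene (Scd1). Leaving out each array gave 0 to 1 members (Elovl6 without knockout replicate 1, Elovl2 without knockout replicate 2). Over all probe sets 2708 passed, and 970 at an adjusted p under 0.01. Of the calls, 57.0% were higher in knockout as deposited, 49.2% after quantile normalization and 44.0% after median centring, while the median of all probe sets moved by less than 0.1 on the log2 scale. The calls of 1415965_at of Scd1 and 1415823_at of Scd2 held under every one of those settings that tested them and without each array in turn, except at an adjusted p under 0.01, where 1415965_at was lost (adjusted p = 0.0134).

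Small differences changed sign without passing. Quantile normalization gave -0.0041 for Elovl3 and -0.0049 and -0.0063 for Elovl5 (1415840_at and 1437211_x_at). Median centring gave -0.028 for Elovl3, -0.0015 and -0.0064 for Elovl5, and -0.0057 and -0.0075 for Elovl1 (1456530_x_at and 1425676_a_at). Without 1 array, differences ran from -0.059 to 0.0074 for Fads1, -0.045 to 0.040 for 1449325_at of Fads2, -0.0031 to 0.060 for 1449219_at of Fads3, -0.010 to 0.044 for 1425676_a_at of Elovl1 and -0.10 to 0.085 for Elovl3. The balance of Elovl2 and Elovl5 ran from -0.32 to -0.21, and passed without knockout replicate 2 (-0.32, adjusted exact permutation p = 0.0390). Counts of called genes in the related lists moved by 1 under some settings and by 2 in 1 case, clock genes higher in knockout, which went from 0 to 2 with the replicate block. The causes were not tested.

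Arrays of the 2 genotypes share replicate numbers, but same-numbered arrays did not deviate together (correlations from -0.24 to 0.15, the own number highest for 0 of 6). With the number as a replicate block, 1906 probe sets passed, 1415823_at of Scd2 among them at 0.51, while the calls were lost of Dgat1 (adjusted p = 0.120) and of 1415965_at of Scd1, which was at 0.29 with an adjusted p of 0.0563.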

Other observations

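Scd1 and Scd2 were not alone in passing by a dimmer probe set. Of 4961 genes with more than 1 probe set, 605 had a brightest probe set that did not pass and another that did, a count made after the values of Scd1 and Scd2 were seen. Among the 689 dimmer probe sets concerned, 60.8% were higher in knockout, beside 55.1% of the 1447 genes called by the brightest. In the related lists, 8 genes were of this kind, also named after their values were seen, with 9 dimmer probe sets that passed, 7 higher and 2 lower in knockout. For Hacd3, a dehydratase gene of the elongation cycle, 1452427_s_at was at 0.44 (SE 0.0753, adjusted p = 0.00376) while the brightest was at 0.066 (SE 0.0378, adjusted p = 0.298). The remaining Hacd3 probe set, 1454698_at, was at 0.016 (SE 0.0398, adjusted p = 0.854). Hacd1, Hacd2 and Hacd4 did not pass. For Cyb5r3, the reductase that supplies electrons to the desaturases, 1425329_a_at was at 0.28 (SE 0.0545, adjusted p = 0.00700) while the brightest was at 0.043 (SE 0.0434, adjusted p = 0.586). For Degs1, the dihydroceramide desaturase, 1423345_at was at 0.24 (SE 0.0687, adjusted p = 0.0426) while the brightest was at 0.051 (SE 0.0517, adjusted p = 0.586). For Cyb5b, 1417767_at was at 0.38 (SE 0.0740, adjusted p = 0.00678) and 1448844_at at 0.28 (SE 0.0679, adjusted p = 0.0195) while the brightest was at 0.084 (SE 0.0418, adjusted p = 0.227). Gpam (1425834_a_at, 0.47, SE 0.0903, adjusted p = 0.00616) and Mbtps1 (1431385_a_at, 0.31, SE 0.0753, adjusted p = 0.0194) were likewise higher. The dimmer probe sets of the clock genes Clock (1418660_at, -0.38, SE 0.101, adjusted p = 0.0295) and Hlf (1434735_at, -0.31, SE 0.0908, adjusted p = 0.0432) were lower. The brightest Clock probe set, 1418659_at, went the other way without passing (0.37, SE 0.137), so no direction is given for Clock. The brightest Hlf probe set, 1434736_at, went the same way as the dimmer one (-0.24, SE 0.131, adjusted p = 0.276). All these values are limma's, on the log2(intensity + 16) scale.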
